A study of Mus musculus with 9 samples.

Results

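Lipid-associated macrophages take up lipid and cell debris in fat-laden or injured tissue, and 10 genes used as their markers were read in mouse liver. They were Trem2, Gpnmb, Cd9, Cd63, Cd68, Fabp5, Lpl, Lgals3, Cd207 and Atp6v0d2, and they made up 10 of the 16755 genes in the deposited table. The genes were chosen by name with the group means of these data already known, so every value of them is given as a description and no test was made on them. Polyadenylated RNA was sequenced from 9 liver samples of male mice on a C57BL/6J background, 3 in each of 3 groups. Scd2f/f mice, in which loxP sites flank the third exon of the fatty acid desaturase gene Scd2, were given the carcinogen diethylnitrosamine (DEN, 10 mg/kg) at 2 weeks of age. From 6 weeks of age they were fed a liquid Western alcohol diet (WAD) with lard, cholesterol and ethanol, for 4 months by the sample labels and for longer by the study's methods. Scd2f/f;CC mice went through the same regimen and also carried Cre under the Col1a1 promoter, which is active in collagen-producing cells such as activated hepatic stellate cells (aHSC). From both of these groups the study describes tumor-adjacent liver (TAL), although its sequencing methods use another abbreviation for the tissue and the labels say liver. The control was liver of Scd2f/f mice whose treatment label says untreated, although the protocol text attached to these samples repeats the DEN and diet regimen. The treatment label was followed, and every comparison with untreated liver rests on it. For age, the study gives a range shared by all its mice, and the age of the untreated group by itself is not given in the sources used here. All 3 groups carried the floxed Scd2 alleles.

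In the liver, resident macrophages (Kupffer cells) line the sinusoids, and monocytes that enter during steatohepatitis can take on a lipid-associated state. TREM2 is a surface receptor for lipids and lipoproteins that signals through the adaptor TYROBP and the kinase SYK. The state is known for lysosomal, tetraspanin, lectin and lipid-handling genes that are switched on with Trem2. Many of these genes are not restricted to macrophages, and whole liver tissue was sequenced, so the cell of origin of each transcript is not known here.

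For each gene the table held 1 value per group, the authors' mean of read counts normalized to the upper quartile. The spread between mice was not available, so no mean below has an error and no difference was tested. The depth of the samples is unknown. Every gene had a mean above 0 in every group, and the lowest was 0.0348. The means are not known to be scaled to gene length, so ratios were taken between groups and not between genes. Where the gene with the highest mean of a list is named, or means are summed, this orders or adds the values as deposited, not transcript abundance. In bulk tissue, a lower mean from fewer cells of a type cannot be told apart from a lower mean with less RNA per cell.

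The targeted gene was read first. Scd2 had a mean of 2.46 in untreated liver, and 6.47 in Scd2f/f TAL against 1.87 in Scd2f/f;CC TAL. It was thus 2.63-fold higher in Scd2f/f TAL than in untreated liver, and 3.46-fold lower in Scd2f/f;CC TAL than in Scd2f/f TAL. The Scd2f/f;CC group, as labelled, had the lower Scd2 mean. Scd2 lies on chromosome 19 from 44293676 to 44306865 on the plus strand of mm10, the build of all file coordinates below.

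With DEN + WAD, most of the 10 markers had a higher mean. At a ratio of at least 2, 7 of 10 were higher in Scd2f/f TAL than in untreated liver, while 9.37% of all genes were (7.48% among the genes that reached a mean of 1 in some group). These were Trem2, Gpnmb, Cd9, Cd63, Cd68, Lpl and Lgals3. Fabp5 was the 1 member at least 2-fold lower, in a comparison in which 4.69% of all genes were. The median log2 ratio of the members was 2.02, beside 0.04 over all genes. In Scd2f/f;CC TAL, 5 of 10 members were at least 2-fold lower than in Scd2f/f TAL, while 4.07% of all genes were (2.15% among the genes that reached a mean of 1). These were Trem2, Gpnmb, Cd63, Lgals3 and Cd207. None of the 10 was at least 2-fold higher, against 1.82% of all genes. The median log2 ratio of the members was -1.10, beside 0 over all genes. Both comparisons share the Scd2f/f TAL mean, so a high value there makes the first ratio larger and the second smaller.

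Between Scd2f/f;CC TAL and untreated liver, 4 of 10 members were at least 2-fold higher (6.41% of all genes) and 2 were at least 2-fold lower (4.64% of all genes). The higher ones were Gpnmb, Cd68, Lpl and Lgals3, and the lower ones were Fabp5 and Cd207. The median log2 ratio was 0.68, beside 0.05 over all genes. Nearest to the 2-fold limit in that comparison were Fabp5, 2.01-fold lower and counted, and Trem2, 1.81-fold higher and not counted. Between genotypes, the nearest on the lower side were Lgals3, 2.30-fold lower in Scd2f/f;CC TAL and counted, and Cd9, 1.99-fold lower and not counted. In the comparison of Scd2f/f TAL with untreated liver, the nearest on the higher side were Cd9, 2.49-fold higher and counted, and Atp6v0d2, 1.35-fold higher and not counted.

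**Figure D1:**
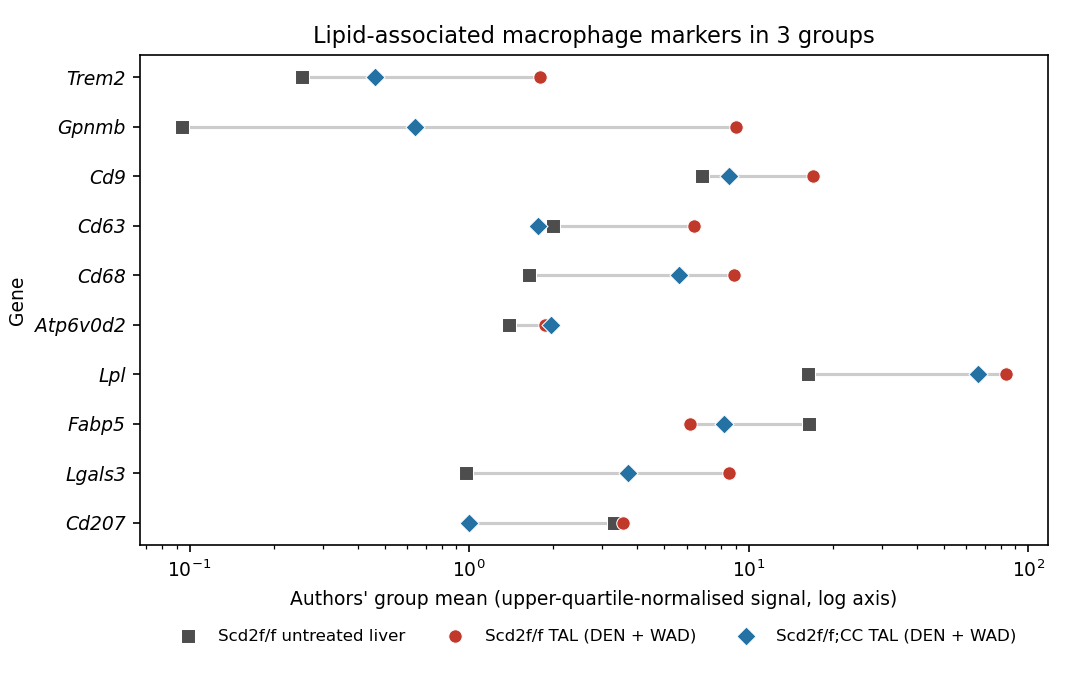
Authors' group means of the 10 markers on a log axis, 1 row per gene, with squares for Scd2f/f untreated liver, circles for Scd2f/f TAL and diamonds for Scd2f/f;CC TAL, and a gray line from the lowest to the highest mean. Gpnmb spans the widest range, from 0.0937 to 8.98, and the diamonds of Cd63 (1.77) and Cd207 (0.999) lie below the squares.

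In the plot of the group means, the members form several patterns. Trem2, Gpnmb, Cd63 and Lgals3 were at least 2-fold higher with DEN + WAD and at least 2-fold lower in Scd2f/f;CC TAL. The share of all genes that passed 2-fold in both comparisons was not computed, here or for the gene lists below. Both ratios share the Scd2f/f TAL mean, so passing both is a description only. Cd68, Lpl and Cd9 were higher with DEN + WAD but less than 2-fold lower in Scd2f/f;CC TAL. Cd207 was level with DEN + WAD in Scd2f/f mice but over 2-fold lower in Scd2f/f;CC TAL than in either other group, Fabp5 went the opposite way with DEN + WAD, and Atp6v0d2 stayed within 2-fold throughout.

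Trem2, the receptor after which the cell state is often named, had a mean of 0.253 in untreated liver, and 1.80 in Scd2f/f TAL against 0.459 in Scd2f/f;CC TAL. The Scd2f/f TAL mean was 7.11-fold that of untreated liver, and the Scd2f/f;CC TAL mean was 3.92-fold lower than it. Against untreated liver, the Scd2f/f;CC TAL mean was 1.81-fold higher. Trem2 lies on chromosome 17 from 48346401 to 48354148, plus strand, and GENCODE M21 lists 4 transcripts with up to 5 exons. Its means were low, and with 1 added to every mean the ratios shrank to 2.23-fold higher and 1.92-fold lower, and to 1.16-fold higher for Scd2f/f;CC TAL against untreated liver.

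Gpnmb, a transmembrane glycoprotein of lysosomes that macrophages make when these are under load, stood farthest out. Its means were 0.0937 in untreated liver, and 8.98 in Scd2f/f TAL against 0.638 in Scd2f/f;CC TAL. The ratio of 95.8 between Scd2f/f TAL and untreated liver ranked 1 among all 16755 genes. In Scd2f/f;CC TAL Gpnmb was 14.1-fold lower, rank 3 from the bottom, and it still was 6.81-fold higher than in untreated liver. The size of the first ratio rests on a very low mean in untreated liver: with 1 added to every mean it was 9.13, and the difference between genotypes was 6.09-fold. Against untreated liver, Scd2f/f;CC TAL was then 1.5-fold higher, so that Gpnmb no longer passed 2-fold there. Gpnmb lies on chromosome 6 from 49036546 to 49070930, plus strand.

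The tetraspanins Cd9 and Cd63 are membrane organizers, Cd9 mainly at the cell surface and Cd63 on late endosomes, lysosomes and exosomes. Cd63 had means of 1.99 in untreated liver, and 6.40 in Scd2f/f TAL against 1.77 in Scd2f/f;CC TAL. It was 3.22-fold higher with DEN + WAD and 3.62-fold lower in Scd2f/f;CC TAL, where its mean lay slightly under that of untreated liver. Cd9 had means of 6.83, 17.0 and 8.54 in the same order. It was 2.49-fold higher with DEN + WAD and 1.99-fold lower in Scd2f/f;CC TAL. Cd63 lies on chromosome 10 from 128900989 to 128912823 on the plus strand, and Cd9 on chromosome 6 from 125460266 to 125494792 on the minus strand. Both have processed copies in the genome: Cd63-ps matched Cd63 at 98.0% identity over 858 bases, and Cd9-ps matched Cd9 at 91.1% over 665 bases. The authors' quantification could split reads between such copies, so both levels carry that uncertainty. In the table, Cd63-ps had means of 0.195 in untreated liver, and 0.198 in Scd2f/f TAL against 0.228 in Scd2f/f;CC TAL, so it did not follow Cd63.

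Cd68, a lysosomal membrane glycoprotein used as a general macrophage marker, had means of 1.64 in untreated liver, and 8.87 in Scd2f/f TAL against 5.66 in Scd2f/f;CC TAL. It was 5.41-fold higher with DEN + WAD, and the difference between genotypes was smaller, 1.57-fold lower in Scd2f/f;CC TAL. Most of the difference from untreated liver was thus also present in Scd2f/f;CC TAL, at 3.45-fold. Atp6v0d2, a subunit of the proton pump (V-ATPase) known from osteoclasts and some macrophages, had means of 1.39, 1.87 and 1.96 in the same order of groups. Its 3 means lay within 1.41-fold of each other. Cd68 lies on chromosome 11 from 69664213 to 69666154 and Atp6v0d2 on chromosome 4 from 19876841 to 19922606, both on the minus strand.

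Lpl encodes lipoprotein lipase, which frees fatty acids from circulating triglyceride. Its means were 16.3 in untreated liver, and 83.6 in Scd2f/f TAL against 66.2 in Scd2f/f;CC TAL. It was 5.13-fold higher with DEN + WAD and 1.26-fold lower in Scd2f/f;CC TAL, so that both groups with DEN + WAD lay close together and well above untreated liver. Fabp5, a fatty acid binding protein of the cytosol, was the exception among the members. Its mean was 16.4 in untreated liver, and 6.19 in Scd2f/f TAL against 8.14 in Scd2f/f;CC TAL. It was 2.65-fold lower with DEN + WAD and 1.32-fold higher in Scd2f/f;CC TAL than in Scd2f/f TAL. The genome holds 5 processed copies of Fabp5 at 93.6% to 98.3% identity, so its level is uncertain. Only Gm6166 of these was in the table, with means of 0.060 in untreated liver, and 0.120 in Scd2f/f TAL against 0.0656 in Scd2f/f;CC TAL. Lpl lies on chromosome 8 from 68880491 to 68907449 and Fabp5 on chromosome 3 from 10012548 to 10016608, both on the plus strand. Lpl shares stretches of 358 to 419 bases with 3 transcripts of other genes.

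Lgals3 encodes galectin-3, a lectin that macrophages make in large amounts and that binds damaged lysosomes. Its means were 0.976 in untreated liver, and 8.49 in Scd2f/f TAL against 3.69 in Scd2f/f;CC TAL. It was 8.70-fold higher with DEN + WAD and 2.30-fold lower in Scd2f/f;CC TAL, and it was still 3.78-fold above untreated liver. With 1 added to every mean, the ratios to untreated liver shrank to 4.80 for Scd2f/f TAL against 2.37 for Scd2f/f;CC TAL. Cd207 encodes langerin, a C-type lectin of Langerhans cells and some other dendritic cells. Its means were 3.31 in untreated liver, and 3.55 in Scd2f/f TAL against 0.999 in Scd2f/f;CC TAL. With DEN + WAD it differed by 1.07-fold only, whereas in Scd2f/f;CC TAL it was 3.55-fold lower than in Scd2f/f TAL and 3.31-fold lower than in untreated liver. With 1 added to every mean, it was 2.28-fold lower than in Scd2f/f TAL and 0.464 times the mean of untreated liver. Lgals3 lies on chromosome 14 from 47367751 to 47386161, plus strand, and Cd207 on chromosome 6 from 83671215 to 83677858, minus strand.

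Next to Cd207, 15026 bases away on the same strand, lies Clec4f, a C-type lectin specific to Kupffer cells in the mouse. Clec4f had means of 27.3 in untreated liver, and 71.2 in Scd2f/f TAL against 71.7 in Scd2f/f;CC TAL. The adjacent genes thus showed different patterns: Clec4f was 2.61-fold higher with DEN + WAD and differed by 1.01-fold between genotypes, while Cd207 was 1.07-fold higher with DEN + WAD and 3.55-fold lower in Scd2f/f;CC TAL. Other members had neighbours both like and unlike them. Dlgap5, 1617 bases from Lgals3, had means of 0.106, 0.684 and 0.312 in the same order of groups. It was 6.45-fold higher with DEN + WAD and 0.456 times as high in Scd2f/f;CC TAL, beside 8.70-fold and 0.435 times for Lgals3. Every mean of Dlgap5 lay under 1, where a small difference in reads makes a large ratio. No other gene adjacent to a member passed 2-fold in both comparisons. Eif4a1, 781 bases from Cd68, had 168, 113 and 112. Gpnmb, Cd9 and Cd207 all lie on chromosome 6, far apart from each other.

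**Figure D2:**
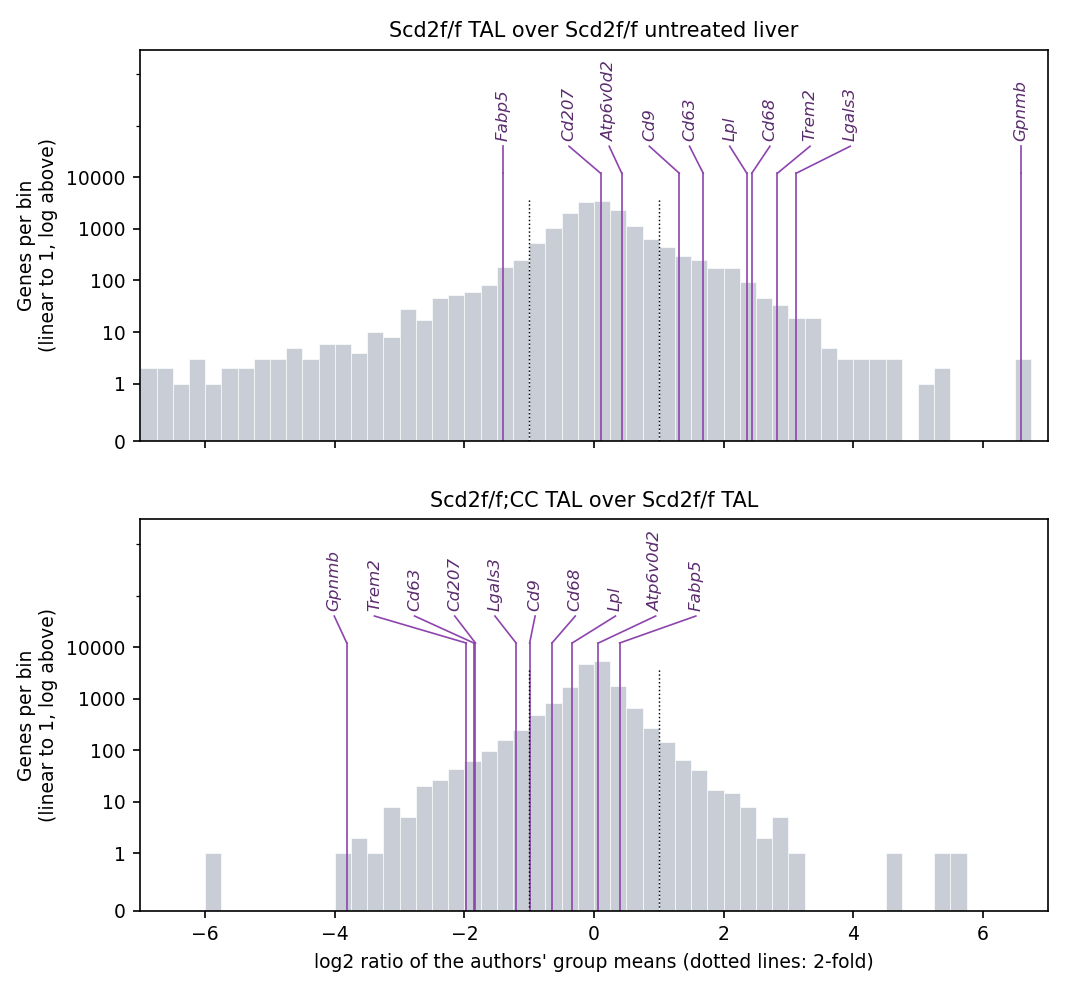
Number of genes per bin of 0.25 in the log2 ratio of the authors' group means, for Scd2f/f TAL over untreated liver (top) and Scd2f/f;CC TAL over Scd2f/f TAL (bottom), with a vertical line at each of the 10 markers and dotted lines at 2-fold; 5 and 1 genes lie beyond the axis. Gpnmb lies at the right edge in the top panel (6.58) and toward the left edge in the bottom one (-3.82), while Atp6v0d2 lies near the middle in both (0.43 and 0.07).

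Against the distribution of all genes, the log2 ratio of Scd2f/f TAL to untreated liver ranked 50 from the top for Lgals3, 83 for Trem2, 166 for Cd68 and 184 for Lpl. Cd63 ranked 642 and Cd9 ranked 1033, in the shoulder of the distribution. Between genotypes, Trem2 ranked 117 from the bottom, Cd63 ranked 141 and Cd207 ranked 148. Lgals3, Cd9 and Cd68 followed at ranks 466, 691 and 1444. The order of the members thus differed between the comparisons: Cd63 and Cd207 stood farther out between genotypes than with DEN + WAD, and Cd68 and Lpl the reverse. Trem2, Gpnmb and Lgals3 had a mean under 1 in untreated liver, where a small difference in reads makes a large ratio.

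Summed over the 10 members, and not scaled to gene length, the means came to 49.2 in untreated liver, and 147 in Scd2f/f TAL against 98.1 in Scd2f/f;CC TAL. Lpl made up 33.1%, 57.0% and 67.5% of these sums. It had the highest mean of them in both TAL groups, and in untreated liver Fabp5 (16.4) and Lpl (16.3) had nearly the same mean.

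Sequence before the transcription start was available for 7 members, Trem2, Gpnmb, Cd9, Cd63, Cd68, Lgals3 and Cd207. These sequences are from RefSeq on GRCm38.p6 and cover 250 bases before the start. Fabp5, Lpl and Atp6v0d2 had no entry. Of 4 motifs searched on both strands, the ETS core GAGGAAG, bound by the macrophage factor PU.1, was found before Trem2, Cd63 and Cd207, and in 10.6% of the 32851 promoters in the table. The AP-1 motif TGANTCA, which reads the same on both strands, was found before Trem2, Cd68 and Cd207, and in 6.75% of all promoters. The E-box CACGTG (6.02% of all promoters) and the M-box TCATGTG (3.25%), letters known from sites of the MiT family that controls lysosomal genes, were in none of the 7. A match describes these letters in this window and is not a binding site. Shown are 4 of the members that were at least 2-fold lower in Scd2f/f;CC TAL: Trem2, Cd207 and Cd63, which share the GAGGAAG match, and Gpnmb, the member with the largest differences, which holds no match. Capitals mark the matches to GAGGAAG (as CTTCCTC, on the opposite strand) and TGANTCA, and each sequence ends at the base before the start. Trem2 is shown from the plus strand of chr17:48346151-48346400, Cd207 from the minus strand of chr6:83677858-83678107, Cd63 from the plus strand of chr10:128909095-128909344, a start inside the span the table gives for the gene, and Gpnmb from the plus strand of chr6:49036268-49036517.
Trem2: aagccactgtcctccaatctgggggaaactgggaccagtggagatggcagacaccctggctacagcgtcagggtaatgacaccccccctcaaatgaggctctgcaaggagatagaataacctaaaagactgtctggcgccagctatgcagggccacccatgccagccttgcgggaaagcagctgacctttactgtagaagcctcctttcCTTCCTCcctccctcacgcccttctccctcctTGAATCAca
Cd207: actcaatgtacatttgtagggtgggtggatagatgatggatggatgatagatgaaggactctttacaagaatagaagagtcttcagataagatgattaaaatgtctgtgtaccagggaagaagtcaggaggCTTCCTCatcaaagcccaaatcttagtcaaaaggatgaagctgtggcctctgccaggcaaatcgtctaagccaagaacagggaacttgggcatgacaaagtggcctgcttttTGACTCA
Cd63: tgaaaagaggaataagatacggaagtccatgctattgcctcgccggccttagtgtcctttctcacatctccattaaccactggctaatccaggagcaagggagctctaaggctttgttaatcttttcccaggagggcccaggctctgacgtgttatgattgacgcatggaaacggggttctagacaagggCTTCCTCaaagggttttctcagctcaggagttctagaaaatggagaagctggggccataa
Gpnmb: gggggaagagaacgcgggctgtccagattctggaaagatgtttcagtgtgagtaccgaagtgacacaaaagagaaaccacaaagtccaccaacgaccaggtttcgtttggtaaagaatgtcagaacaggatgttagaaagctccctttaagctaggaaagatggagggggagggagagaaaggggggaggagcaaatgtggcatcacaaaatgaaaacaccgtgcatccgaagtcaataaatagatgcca

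In Trem2 the GAGGAAG match lay 41 to 35 bases before the start and the AP-1 match 9 to 3 bases before it. In Cd207 they lay 119 to 113 and 7 to 1 bases before the start, and in Cd63 the GAGGAAG match lay 60 to 54 bases before it. Trem2 and Cd207 hold the same pair of motifs. With DEN + WAD they were 7.11-fold and 1.07-fold higher, and between genotypes 3.92-fold and 3.55-fold lower. Whether these motifs bear on either ratio was not tested.

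The other genes of the TREM2 route were read next, from a list of 12 of which 8 were in the table. With DEN + WAD, 6 of 8 were at least 2-fold higher and the median log2 ratio was 1.72. Between genotypes none of the 8 was 2-fold lower, and the median was -0.32. Tyrobp, the adaptor through which TREM2 signals, had means of 2.72 in untreated liver, and 8.66 in Scd2f/f TAL against 6.56 in Scd2f/f;CC TAL. Treml4, a related receptor, had the highest ratio with DEN + WAD (0.905, 4.43 and 3.76 in the same order of groups). Plcg2, the phospholipase downstream of SYK, had the lowest ratio between genotypes, with 0.877, 3.84 and 2.55. Adam10, a protease that sheds TREM2 from the cell surface, had the highest mean of the list and varied little, with 25.8, 31.9 and 28.7. So the receptor itself was 3.92-fold lower in Scd2f/f;CC TAL, while Tyrobp and Plcg2 were 1.32-fold and 1.51-fold lower.

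A list of 27 other genes of lipid-associated macrophages was all present. With DEN + WAD, 11 of 27 were at least 2-fold higher (median log2 ratio 0.96), and 7 of 27 were at least 2-fold lower in Scd2f/f;CC TAL (median -0.38). Mmp12, an elastase of macrophages, came closest to Gpnmb, with means of 0.157 in untreated liver, and 14.9 in Scd2f/f TAL against 3.52 in Scd2f/f;CC TAL. Itgax, the integrin CD11c, had 0.235, 3.66 and 1.12, and Capg, an actin-capping protein, had 0.474, 3.65 and 1.54. Vim, the intermediate filament of mesenchymal cells and macrophages, had 9.94, 20.1 and 9.83. These 4 genes, like Trem2, Gpnmb, Cd63 and Lgals3, passed 2-fold in both comparisons. Spp1, osteopontin, which bile duct cells also make, had the lowest ratio with DEN + WAD, with 52.3, 45.1 and 14.8. Apoe had the highest mean of the list, not scaled to length, with 5460, 9970 and 9340, and Ctsl, a lysosomal protease, had the highest ratio between genotypes, with 243, 249 and 259.

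Markers of macrophages in general were also higher with DEN + WAD. Of 12, 10 were at least 2-fold higher (median log2 ratio 2.07) and 1, Cd14, was at least 2-fold lower in Scd2f/f;CC TAL (median -0.48). Adgre1, which encodes F4/80, had means of 5.70 in untreated liver, and 19.0 in Scd2f/f TAL against 17.7 in Scd2f/f;CC TAL. Csf1r, the receptor for the growth factor of macrophages, had 17.0, 60.8 and 53.5. Cd14, a co-receptor for endotoxin, had 0.862, 3.26 and 1.41. Mpeg1 had the highest mean of the list (30.3, 137 and 101) and Aif1 the highest ratio with DEN + WAD (0.749, 4.06 and 3.11). Beside Trem2 and Gpnmb, which were 3.92-fold and 14.1-fold lower in Scd2f/f;CC TAL, Adgre1 and Csf1r were 1.07-fold and 1.14-fold lower. Others on the list differed more: C1qa was 1.44-fold, Lyz2 1.68-fold and Cd14 2.31-fold lower, beside 1.57-fold for the member Cd68. Between genotypes, 11 of the 12 had a lower mean in Scd2f/f;CC TAL and 1 a higher one. The summed mean of the 12 was 152 in untreated liver, and 480 in Scd2f/f TAL against 360 in Scd2f/f;CC TAL, none of them was at 0, and their part in the differences of the members was not tested.

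Of 9 Kupffer cell markers, 7 were at least 2-fold higher with DEN + WAD (median log2 ratio 1.5) and none was 2-fold lower in Scd2f/f;CC TAL (median -0.05). Timd4, a marker of long-lived Kupffer cells, had means of 1.70 in untreated liver, and 4.81 in Scd2f/f TAL against 5.94 in Scd2f/f;CC TAL. Marco, a scavenger receptor, had the highest ratio with DEN + WAD, with 0.870, 14.6 and 10.7. Cd5l had the highest mean of the list, with 22.9, 114 and 99.0. Cd163, a receptor for hemoglobin, had the lowest ratio with DEN + WAD and the highest between genotypes, with 11.6, 8.44 and 12.9, and Id3 the lowest between genotypes, with 7.89, 18.1 and 9.99. The summed means were 139 in untreated liver, and 365 in Scd2f/f TAL against 339 in Scd2f/f;CC TAL, so the Kupffer cell list, unlike Trem2 and Gpnmb, was nearly level between the genotypes.

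Of 10 monocyte markers, 8 were at least 2-fold higher with DEN + WAD (median 1.54), and 2 were at least 2-fold lower in Scd2f/f;CC TAL (median -0.34). The 2 were Cx3cr1, the fractalkine receptor (0.256, 2.54 and 0.482), and Vcan, a matrix proteoglycan (0.265, 1.06 and 0.366). Ly6c2, the marker of inflammatory monocytes, had means of 0.168, 0.557 and 0.522. Plac8 had the highest mean of the list (1.81, 4.54 and 3.59). The summed means were 5.03, 17.3 and 11.5. For dendritic cells, to which Cd207 also points, 9 of 10 markers were in the table. Of these, 5 were at least 2-fold higher with DEN + WAD (median 1.05) and none was 2-fold lower in Scd2f/f;CC TAL (median -0.36). Itgax, by which the study identified dendritic cells, is not among them, since it was read with the other lipid-associated macrophage genes. It was 15.6-fold higher with DEN + WAD and 3.27-fold lower in Scd2f/f;CC TAL. Flt3 had means of 0.231, 0.573 and 0.288, Fscn1 of 1.01, 2.13 and 1.77, Clec9a of 1.03, 1.48 and 1.15, and Zbtb46, the highest of the list, of 2.62, 3.35 and 3.31. None of these 4 showed the pattern of Cd207, which was lower in Scd2f/f;CC TAL than in untreated liver.

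**Figure D3:**
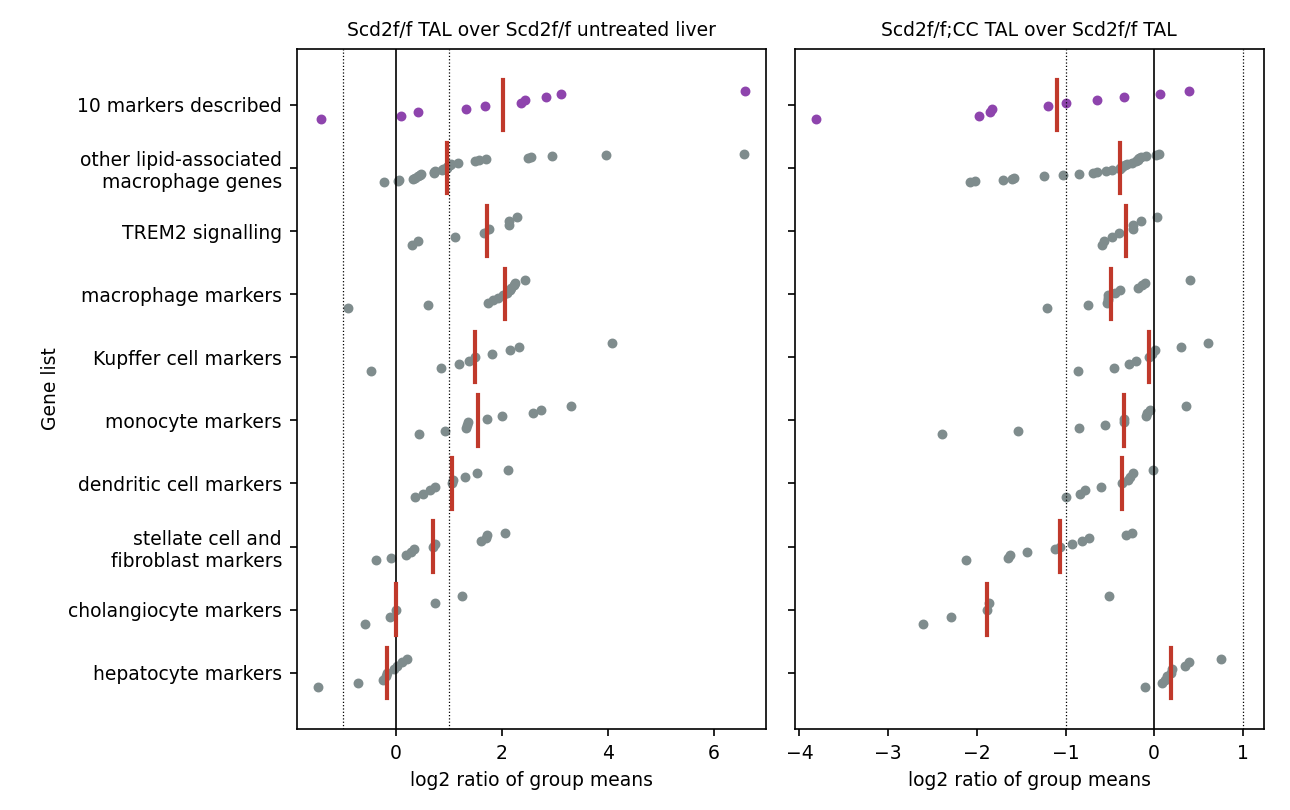
Log2 ratios of the authors' group means, 1 point per gene, for the 10 markers (purple) and 9 other gene lists (gray), for Scd2f/f TAL over untreated liver (left) and Scd2f/f;CC TAL over Scd2f/f TAL (right), with red bars at list medians and dotted lines at 2-fold. On the left the 10 markers (median 2.02) lie beside the macrophage markers (2.07), and on the right they (-1.10) lie beside the stellate cell and fibroblast markers (-1.06).

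Cells other than macrophages that express some of the 10 markers were read as well. Of 11 stellate cell and fibroblast markers, 4 were at least 2-fold higher with DEN + WAD (median 0.70), and 6 were at least 2-fold lower in Scd2f/f;CC TAL (median -1.06). Col1a1, the gene whose promoter drives Cre, had means of 4.69 in untreated liver, and 19.6 in Scd2f/f TAL against 4.51 in Scd2f/f;CC TAL. Col1a2 (6.65, 21.7 and 6.93), Col3a1 (19.3, 58.6 and 21.6) and Thy1 (0.335, 1.11 and 0.511) also passed 2-fold in both comparisons. Dcn had the highest mean (70.3, 118 and 67.2), Lrat, of quiescent stellate cells, the smallest difference between genotypes (15.0, 19.0 and 16.0) and Des the lowest ratio with DEN + WAD (4.25, 3.29 and 1.98). The summed means were 202, 343 and 196. The Scd2f/f;CC TAL means of Cd63 (0.889-fold of untreated liver) and Col1a1 thus both lay near untreated liver. Acta2, which the study used to mark aHSC, went another way, with 1.27, 1.20 and 0.388. It was 1.06-fold lower with DEN + WAD, and its Scd2f/f;CC TAL mean was 3.27-fold below untreated liver. Against untreated liver, 2 of the 11 were at least 2-fold lower in Scd2f/f;CC TAL (4.64% of all genes), Acta2 and Des, and none was 2-fold higher. The part of stellate cells in the Cd63 and Cd9 means was not tested.

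Cholangiocyte markers had the list medians closest to the ratios of Cd207 (0.10 and -1.83). Of 7, 5 were in the table; 1 was at least 2-fold higher with DEN + WAD (median 0.01) and 4 were at least 2-fold lower in Scd2f/f;CC TAL (median -1.88). Epcam, of the bile duct epithelium, had means of 1.97, 1.82 and 0.50, and Sox9, the highest of the list, of 3.0, 5.03 and 3.52. The summed means were 6.70, 8.84 and 4.44, and the part of these cells in the difference of Cd207 was not tested. Hepatocyte markers were nearly level, with medians of -0.15 and 0.19 and 1 of 9 passing 2-fold, Tat, lower with DEN + WAD (499, 181 and 305). Alb, the highest mean, had 21300, 20900 and 22700, Cyp2e1 had the highest ratio with DEN + WAD (3460, 3990 and 4570) and Hnf4a the lowest between genotypes (271, 229 and 213). The summed means were 34728, 32403 and 36657.

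Few relatives of single members passed 2-fold in both comparisons. Of 18 other tetraspanins, 5 were at least 2-fold higher and 1 lower with DEN + WAD (median 0.45), and 1 was lower in Scd2f/f;CC TAL (median -0.14). That gene was Tspan8 (0.679, 1.49 and 0.306), the only other tetraspanin that passed 2-fold in both comparisons, as Cd63 did. Cd53, of blood cells, had the highest ratio with DEN + WAD (2.17, 8.71 and 6.71), Tspan4 the lowest (22.8, 10.8 and 9.74), Tspan12 the highest between genotypes (83.3, 79.6 and 96.9), and Cd81 the highest mean (107, 141 and 129). Of 8 other galectins, 5 were in the table, of which 2 were at least 2-fold higher with DEN + WAD (median 0.61) and none was 2-fold lower in Scd2f/f;CC TAL (median 0.00). Lgals1 had means of 4.45, 14.4 and 8.93 and came nearest to Lgals3. Between genotypes, Lgals9 (112, 146 and 149) and Lgals8 (56.8, 68.7 and 68.6) were level, and Lgals4 (1.09, 1.66 and 2.11) was higher in Scd2f/f;CC TAL. Lgals1 and Lgals3 were lower in Scd2f/f;CC TAL than in Scd2f/f TAL, but both stayed above untreated liver.

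Of 7 other fatty acid binding proteins, 5 were in the table, with 1 at least 2-fold higher and 1 lower with DEN + WAD (median 0.07) and none 2-fold lower in Scd2f/f;CC TAL (median -0.17). Fabp1, the liver form, had means of 1370, 1040 and 1110, Fabp7 was higher with DEN + WAD (0.818, 2.83 and 2.52) and Fabp4, of fat cells and macrophages, was level (5.24, 5.49 and 3.76). Fabp2 had 33.2, 61.6 and 66.3. The 1 lower was Fabp3, the heart form, with 0.921, 0.0829 and 0.0458. With DEN + WAD, Fabp1 and Fabp3 thus had lower means, as Fabp5 did, and Fabp2, Fabp4 and Fabp7 had higher ones. The 13 partners of lipoprotein lipase were all present. With DEN + WAD, 2 were at least 2-fold higher (median 0.32), none was 2-fold lower in Scd2f/f;CC TAL (median 0.07), and the 2 were Vldlr and Cd36. Cd36, a receptor for fatty acids that is also on the list of other lipid-associated macrophage genes, had means of 23.7, 138 and 88.5. It was 5.82-fold higher with DEN + WAD and 1.56-fold lower in Scd2f/f;CC TAL. These ratios lay nearer to those of Cd68 (5.41-fold and 1.57-fold) than to those of Lpl (5.13-fold and 1.26-fold). Apoa5, an activator of the enzyme, had the highest mean (308, 405 and 426), Lipg the lowest ratio with DEN + WAD (11.1, 7.45 and 6.86), and Lipc, hepatic lipase, the highest between genotypes (49.6, 65.8 and 79.8).

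Around Atp6v0d2, 19 of 23 other subunits of the V-ATPase were in the table and none passed 2-fold in either comparison, with medians of 0.06 and -0.10. Atp6v0c, the proteolipid ring subunit, had the highest mean (45.2, 52.5 and 49.0), Atp6v1b2 the highest ratio with DEN + WAD (16.6, 26.5 and 24.0), and Atp6v0b the lowest (32.6, 21.7 and 22.3). Between genotypes Atp6v1h had the highest ratio (32.1, 31.0 and 32.1) and Atp6v0e the lowest (10.7, 11.3 and 9.33). Atp6v0d2 was level like the pump as a whole. Of 10 osteoclast genes, a cell type in which Atp6v0d2 is best known, 7 were in the table, with 2 at least 2-fold higher with DEN + WAD (median 0.57) and 1 lower in Scd2f/f;CC TAL (median -0.26). Tnfrsf11a, which encodes RANK, had 0.463, 1.73 and 1.29, and Acp5, the tartrate-resistant phosphatase, had 42.8, 57.2 and 57.1.

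Among 9 of 10 regulators found, which include the MiT, PPAR, LXR and PU.1 genes, 2 were at least 2-fold higher with DEN + WAD (median 0.48) and none was 2-fold lower in Scd2f/f;CC TAL (median -0.21). Spi1, which encodes PU.1, had means of 0.976 in untreated liver, and 5.30 in Scd2f/f TAL against 3.76 in Scd2f/f;CC TAL. Nr1h3, which encodes LXR alpha, had the highest mean and was level (33.5, 32.5 and 32.7). Spi1 was thus 1.41-fold lower in Scd2f/f;CC TAL, where Trem2 and Cd63 were 3.92-fold and 3.62-fold lower.

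The genes most like the members were found by the Euclidean distance between pairs of log2 ratios, Scd2f/f TAL over untreated liver and Scd2f/f;CC TAL over Scd2f/f TAL, among 12337 other genes that reached a mean of 1 in some group. The pairs rest on 3 group means only. Nearest to the median pair of the members (2.02 and -1.10) were, in order, Kcnj10, P2ry6, Haus8, Tmem86a, Gldn, Fxyd5, Cd14, Hspa1b, Cxcr4 and Prdm1. Kcnj10 had means of 0.565 in untreated liver, and 2.25 in Scd2f/f TAL against 1.05 in Scd2f/f;CC TAL, and Tmem86a had 1.98, 8.61 and 4.29. Cd14 was the only one of these 10 on a macrophage list.

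Among the members, Cd68 and Lpl were the closest pair, at a distance of 0.321, and Trem2 and Lgals3 followed at 0.822. Cd9 and Cd63 were each other's nearest at 0.937. Gpnmb stood alone, 4.18 from its nearest member, Trem2. Outside the members and within 3-fold of the same Scd2f/f TAL mean, the nearest to Trem2 were Gm26735, Atf3 and Ms4a7. Ms4a7, a macrophage gene, had means of 0.243, 1.37 and 0.425, and Atf3, a stress-induced factor, had 0.404, 3.69 and 0.982. The nearest to Gpnmb were Mmp12, Ntrk2 and Fgf21, with Mmp12 the closest at a distance of 1.73. Nearest to Lgals3 were Cdkn1a, Capg and Clec7a, nearest to Cd63 were Gsta1, Cd72 and Lamc3, and nearest to Cd9 were Lyve1, Hist1h4m and Id3. Cd68 lay nearest to Evl, Gdf15 and Plek, Lpl to the Kupffer cell gene Cd5l and to Cyp2c38 and Cyp4a14, and Atp6v0d2 to Mapk1ip1, Zfp579 and AC124572.2. Cd207 lay nearest to Epcam, Sardhos and Myc, which had means of 6.84, 6.41 and 2.05. Fabp5 lay nearest to Gm23444, Gm23472 and Gm24497, of which the first and second had identical means (46.7, 18.2 and 24.7).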

How the data were processed

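Liver RNA was isolated with a PicoPure kit, polyA RNA was captured on TruSeq V2 beads, and libraries were run on a NextSeq sequencer. STAR 2.6.1, Partek 6 and mm10 are named in the submitters' processing notes. The authors used the E/M method of Partek Flow and Gencode M3 to quantify genes, normalized the values to the upper quartile and ran Partek Gene Specific Analysis. The deposited signal of each group is the authors' least-squares mean, printed to 3 significant digits, and single samples were not analysed here. The Scd2f/f TAL mean appears in both comparisons of the table with identical values. The 8 columns of p-values, FDR, ratios and fold changes of the authors' comparisons were not used.

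Ratios of group means were computed with Python 3.11.15, NumPy 2.4.6 and pandas 2.3.3, and figures drawn with Matplotlib 3.10.9. A fold of 2 was counted, with no pseudocount. The steps were tested on simulated data. Alternatives were folds of 1.5 and 3, pseudocounts of 0.1 and 1, a minimum mean of 1, and scaling to the median ratio or to the sum over all genes. Copies were transcripts of at least 90% identity over at least 300 bases in GENCODE M21. All 10 members overlapped the GENCODE gene of their name. The members and gene lists were chosen with earlier results of these data known. Named were the members, Scd2, cell type defining genes, and in each list the gene with the highest Scd2f/f TAL mean, those with the highest and lowest ratio in each comparison (mean of at least 1 in at least 1 group), those passing 2-fold in both comparisons, and the genes nearest in pattern. Pseudogene copies and any other names were picked with their values in view. Some items that this rule would name are not reported here.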

Additional observations from a re-analysis of the deposited data

How the results depend on the processing

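The table gives group means only, so no replicate could be left out. No paired analysis was possible because the columns are group means and no result comes from a test. Each count of members is given with the share of all genes that met the same rule. At a fold of 1.5, 7 members were higher with DEN + WAD (17.2% of all genes), the members lower in Scd2f/f;CC TAL numbered 7 (9.8%), and 5 members were higher there than in untreated liver (14.9%). At a fold of 3, these counts were 6 (4.33%), 4 (1.3%) and 4 (2.11%). With a pseudocount of 1 they were 7 (2.82%), 4 without Trem2 (0.507%) and 3 without Gpnmb (1.58%). When scaled to the median ratio they were 7 (8.96%), 6 with Cd9 (4.19%) and 4 (5.9%). When scaled to the sum over all genes they were 7 (14.6%), 6 with Cd9 (5.76%) and 5 with Trem2 (8.49%). The sum scaling moved all log2 ratios by 0.32 for Scd2f/f TAL over untreated liver and by -0.17 between genotypes, and the median scaling by -0.03 and -0.01.

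The median log2 ratio of the members for Scd2f/f TAL over untreated liver was 1.99 with a pseudocount of 0.1, 1.25 with a pseudocount of 1, 1.99 when scaled to the median ratio and 2.34 when scaled to the sum over all genes. Between genotypes it was -1.08, -0.93, -1.11 and -1.27 in the same order. For single members, a pseudocount cannot reverse the sign of a log2 ratio, and the minimum mean left all 10 members and their values unchanged. Only the scalings could therefore reverse a sign. The log2 ratio of Atp6v0d2 between genotypes reversed to -0.10 when scaled to the sum over all genes, and no other member's sign changed. The depth of the samples is unknown, so the precision of the low means of Trem2 and Gpnmb cannot be given.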

Other observations

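Markers of other leukocytes were also higher with DEN + WAD, at low means. Of 7 neutrophil markers, 5 were in the table and all 5 were at least 2-fold higher in Scd2f/f TAL than in untreated liver (median log2 ratio 1.75). Between genotypes 1, Cxcr2, was 2-fold lower (median -0.32). S100a9, a calcium-binding protein of neutrophils and monocytes, had the highest mean, with 0.355 in untreated liver, and 1.94 in Scd2f/f TAL against 1.59 in Scd2f/f;CC TAL. Csf3r had 0.477, 1.46 and 1.17 in the same order. Of 10 T, NK and B cell markers, 8 were at least 2-fold higher with DEN + WAD (median 1.46) and 3 were at least 2-fold lower in Scd2f/f;CC TAL (median -0.61). The T cell genes Cd3e (0.226, 1.25 and 0.545) and Cd8a (0.235, 1.05 and 0.302) passed 2-fold in both comparisons, as Trem2 did. The B cell genes Cd79a (0.211, 0.530 and 0.569) and Ms4a1 (0.204, 0.460 and 0.474) were level between genotypes. Gzmb, a protease of cytotoxic cells, had 0.0660, 0.651 and 0.309. Cxcr2, Gzmb and the B cell genes were chosen after their values were seen.

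Endothelial markers differed less. Of 8, 2 were at least 2-fold higher with DEN + WAD (median 0.37) and none was 2-fold lower in Scd2f/f;CC TAL (median -0.05). Lyve1, a hyaluronan receptor of sinusoidal endothelium and some macrophages, had the highest ratio with DEN + WAD and the lowest between genotypes, with means of 2.6, 6.6 and 3.44, close to the ratios of Cd9. Stab2, a scavenger receptor of the same cells, had the highest mean, with 36.9, 42.8 and 45.9, and Kdr had 29.8, 34.9 and 40.2.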
